A study of Homo sapiens with 9 samples.

Results

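CRABP2 and 7 further genes of retinoic acid handling were followed across human kidney epithelial cells exposed to fine particulate matter. The 8 genes were listed by symbol and matched to 8 of the 58884 Ensembl gene identifiers in the deposited tables. They are CRABP2, which encodes a carrier of retinoic acid, the receptor genes RARA, RARB, RARG and RXRA, and the enzyme genes ALDH1A3, DHRS3 and LRAT. CRABP2 was listed because earlier results of these data placed it among the large decreases with PM2.5, so its values against control are given as a description without a test. The other 7 were taken for their place in the pathway, with those earlier results known.

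HK-2 is an immortalised line of human proximal tubule epithelial cells, and all 9 libraries came from it, grown in keratinocyte serum-free medium with bovine pituitary extract and epidermal growth factor. Exposed cells below are those of both groups given PM2.5. In 3 libraries the cells had 6 h of lactoferrin, an iron-binding protein of milk and other secretions, and then 18 h of PM2.5. In 3 the cells had 24 h of PM2.5, fine airborne particles, without lactoferrin. The 3 control libraries are labelled untreated, while the treatment protocol describes a vehicle. The series text gives a lactoferrin dose of 40 mg/ml and a PM2.5 dose of 1 mg/ml, in units that could not be checked here. Lactoferrin without PM2.5 was not among the groups analysed, and the pretreated cells spent less time in PM2.5 than the cells given PM2.5 alone, so pretreatment and exposure time cannot be told apart. All values come from this immortalised line, which lacks the other cells of the kidney. Whether the 3 libraries of a group were grown separately is not given, and their spread, on which every p-value rests, may be technical.

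Retinol, the circulating form of vitamin A, is oxidised to retinaldehyde by retinol dehydrogenases such as RDH10 and then to retinoic acid by retinaldehyde dehydrogenases such as ALDH1A3. DHRS3 turns retinaldehyde back into retinol, and LRAT esterifies retinol for storage. CRABP2 brings retinoic acid to its nuclear receptors, which pair a retinoic acid receptor (RARA, RARB or RARG) with a retinoid X receptor such as RXRA on DNA, and enzymes of the CYP26 family clear the acid. In the kidney, proximal tubule cells take filtered retinol and its binding protein back up from the urine.

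The promoters of CRABP2 and ALDH1A3 are printed because these genes differed most from control among the 8, and a RARB promoter because it is a textbook retinoic acid target. Each window holds the 250 bases before a RefSeq transcript start (GRCh38.p14), 5′ to 3′ on the gene's strand. The CRABP2 window is chr1:156705785-156706034 (minus strand), and its capitals mark GGTTCA, a core motif of receptor binding.
CRABP2: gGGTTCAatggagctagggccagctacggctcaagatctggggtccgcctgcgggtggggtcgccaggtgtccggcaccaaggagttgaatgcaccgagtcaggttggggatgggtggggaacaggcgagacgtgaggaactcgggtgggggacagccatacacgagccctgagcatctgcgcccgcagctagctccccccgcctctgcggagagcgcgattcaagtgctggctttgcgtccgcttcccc
The RARB window is chr3:25428013-25428262 (plus strand), and its capitals mark GGTTCA and AGTTCA, repeated in the same direction with 5 bases between them.
RARB: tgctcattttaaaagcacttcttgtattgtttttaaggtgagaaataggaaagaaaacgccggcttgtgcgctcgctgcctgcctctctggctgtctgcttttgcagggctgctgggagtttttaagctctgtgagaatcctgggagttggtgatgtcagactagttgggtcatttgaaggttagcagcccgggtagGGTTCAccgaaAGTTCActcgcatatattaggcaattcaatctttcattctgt
The ALDH1A3 window is chr15:100879581-100879830 (plus strand), and its capitals mark CACGC and GCGTG, the core of the dioxin response element on either strand.
ALDH1A3: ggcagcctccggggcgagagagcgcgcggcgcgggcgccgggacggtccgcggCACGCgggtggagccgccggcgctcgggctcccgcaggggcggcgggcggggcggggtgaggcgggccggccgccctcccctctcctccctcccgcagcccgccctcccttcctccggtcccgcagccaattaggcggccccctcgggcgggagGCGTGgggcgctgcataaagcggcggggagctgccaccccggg
All 8 genes had at least 1 window in the table, 16 windows in all. Both strands were searched for the core motifs AGGTCA and AGTTCA and also GGTTCA, alone and as direct repeats of any of the 3 with 1, 2 or 5 bases between. TGANTCA, the AP-1 site, was searched as well. So was TGACNNNGC, the antioxidant response element, and so was GCGTG. The repeat with 5 bases between was found in 1 of the 16 windows, the RARB window above, and in 0.0513% of 35116 promoter windows of the same length. At least 1 of the 3 single core motifs was in 25.1% of those windows, GGTTCA in 7.16% and GCGTG in 32.2%. TGANTCA was in 6.57% of them and TGACNNNGC in 10.9%. Among the 16 windows, single core motifs were found for CRABP2, RARA, RARB and DHRS3. GCGTG was found for RARA, RARB and ALDH1A3, TGACNNNGC for RXRA and RARB, and TGANTCA for DHRS3. A match of letters describes the window and says nothing of binding.

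The deposited values were FPKM, reads scaled by gene length and by the assigned reads of the library, and corresponded to 15314367 to 18819943 assigned reads or fragments per library. In a principal component analysis, exposed and control libraries parted on the first component (54.38% of the variance). Replicate 1 of lactoferrin plus PM2.5 scored 38.04 on the second component, where replicates 2 and 3 scored 7.93 and -7.1, and control replicate 3 stood apart on the third. Of 19 proximal tubule markers, 7 were at 1 FPKM or more in every library, among them PAX8, KRT8 and KRT18, while 12 were below 1 in every library, among them LRP2, CUBN and AQP1, so the transport markers of the labelled cell type were largely absent. Among the 7, MIOX averaged 30.2 FPKM in lactoferrin plus PM2.5, 20.0 FPKM in PM2.5 and 6.18 FPKM in control. CDH6 went the other way, at 12.6 FPKM in lactoferrin plus PM2.5, 14.4 FPKM in PM2.5 and 47.2 FPKM in control. Of the markers of distal tubule, keratinocytes, fibroblasts and endothelium, and immune cells, only 1 of 10 (SCNN1A), 1 of 12 (KRT10), 1 of 11 (LUM) and 0 of 8 reached 1 FPKM in every library. The summed fibroblast and endothelial list, carried by LUM, was 50.8 to 55.1 FPKM in lactoferrin plus PM2.5, 66.2 to 68.1 FPKM in PM2.5 and 48.1 to 54.4 FPKM in control. Other genes of that list went the other way: COL1A1 averaged 1.14 FPKM in lactoferrin plus PM2.5, 1.42 FPKM in PM2.5 and 6.77 FPKM in control, and PDGFRB averaged 0.0788 FPKM in lactoferrin plus PM2.5, 0.0881 FPKM in PM2.5 and 0.334 FPKM in control. The part of these markers in the results was not tested.

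**Figure D1:**
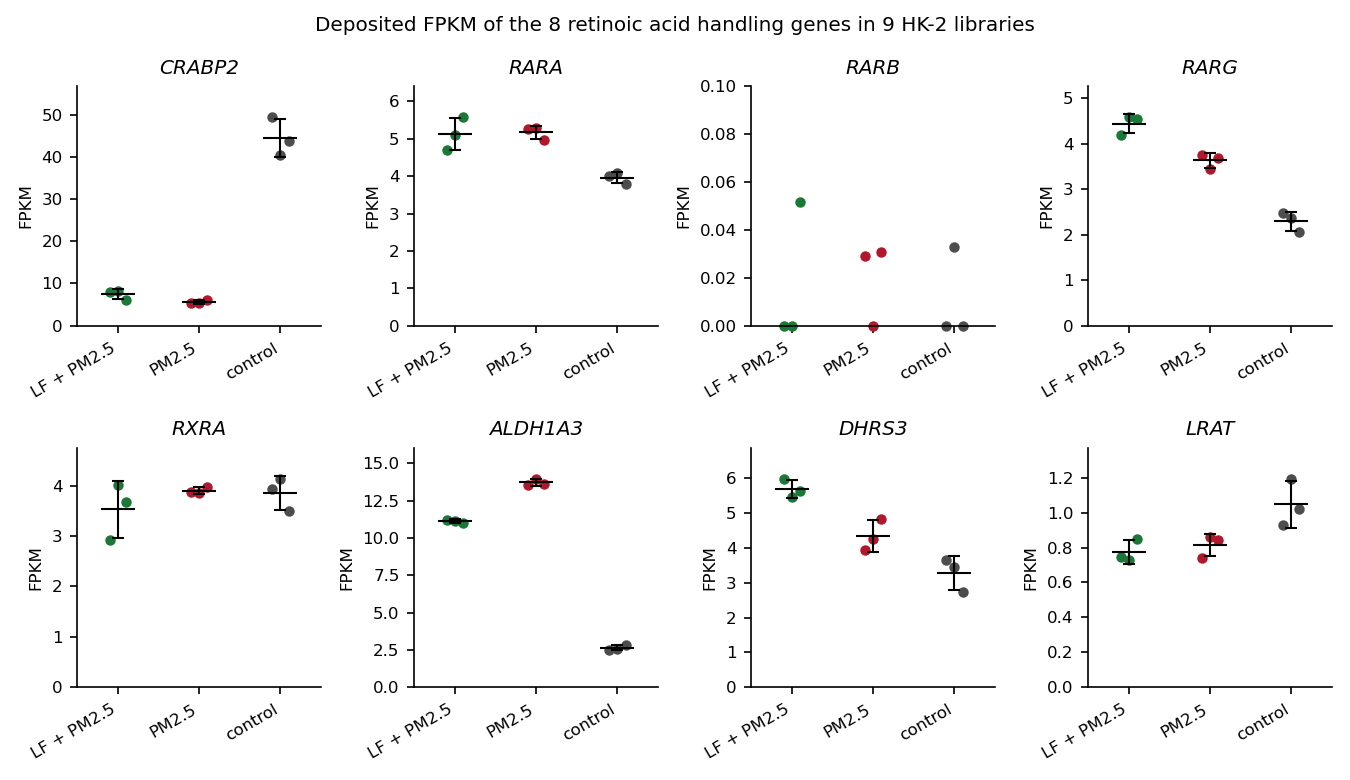
Deposited FPKM (vertical axes from 0, a scale of its own per gene) of the 8 genes in 3 libraries each of lactoferrin plus PM2.5 (LF + PM2.5), PM2.5 and control, with points for libraries and bars for the mean ± SD. No mean is drawn for RARB, which had at most 3 reads in a library, and CRABP2 lay at 5.30 to 8.24 FPKM in the 6 exposed libraries and at 40.5 to 49.4 FPKM in control.

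CRABP2 (ENSG00000143320; GRCh38 chromosome 1, 156699606 to 156705816, minus strand) was far lower in both exposed groups than in control. It had 7.96, 8.24 and 6.05 FPKM in lactoferrin plus PM2.5, 5.46, 5.30 and 6.04 FPKM in PM2.5, and 49.4, 40.5 and 43.7 FPKM in control. All 6 exposed libraries were below all 3 control libraries. The means were 7.41 ± 1.19 FPKM in lactoferrin plus PM2.5, 5.60 ± 0.386 FPKM in PM2.5 and 44.5 ± 4.49 FPKM in control (SD, n = 3 each), so that the mean was 6.00-fold lower than control with lactoferrin plus PM2.5 and 7.95-fold lower with PM2.5. On the log2(FPKM + 0.5) scale, lactoferrin plus PM2.5 differed from control by -2.57 ± 0.13 and PM2.5 by -2.93 ± 0.13 (SE). Without replicate 1 of lactoferrin plus PM2.5 and control replicate 3 these values were -2.62 and -2.92. Rebuilt from the FPKM, CRABP2 had 105 to 165 reads in lactoferrin plus PM2.5, 105 to 117 reads in PM2.5 and 738 to 838 reads in control. No exon base of CRABP2 is shared with another annotated gene, and in bulk RNA a loss of cells that make a transcript cannot be told apart from less transcript per cell.

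No decrease was called in the other carriers of retinoic acid. CRABP1, its closest relative, was listed at 0 in every library. FABP5, a fatty acid carrier that can also bring retinoic acid to the receptor PPARD, had 19.5, 14.4 and 11.2 FPKM in lactoferrin plus PM2.5, 13.3, 11.3 and 12.0 FPKM in PM2.5, and 10.4, 9.26 and 13.7 FPKM in control. Its groups overlapped, and against control its adjusted p was 0.232 with lactoferrin plus PM2.5 and 0.763 with PM2.5 (limma, Benjamini-Hochberg). FABP5 has processed pseudogenes that could share its reads, so its level is uncertain. The CRABP2 to FABP5 ratio of FPKM was 0.408 to 0.574 in lactoferrin plus PM2.5, 0.409 to 0.503 in PM2.5 and 3.18 to 4.77 in control, so CRABP2 was the more abundant carrier in each control library and FABP5 in each exposed library.

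ALDH1A3 (ENSG00000184254; chromosome 15, 100877714 to 100916626, plus strand), which makes retinoic acid from retinaldehyde, rose in both exposed groups. It had 11.2, 11.2 and 11.0 FPKM in lactoferrin plus PM2.5, 13.6, 14.0 and 13.6 FPKM in PM2.5, and 2.52, 2.58 and 2.85 FPKM in control. The 3 groups did not overlap, and the PM2.5 libraries were the highest. The mean was 4.20-fold higher than control with lactoferrin plus PM2.5 (log2 fold change 1.84 ± 0.08, adjusted p = 9.58e-07, limma) and 5.18-fold higher with PM2.5 (2.13 ± 0.08, adjusted p = 6.48e-07, limma). ALDH1A3 made up 98.6% to 99.5% of the summed FPKM of ALDH1A1, ALDH1A2 and ALDH1A3 in lactoferrin plus PM2.5, 98.8% to 99.7% in PM2.5 and 96.7% to 97.9% in control. Of its exon bases 28.6% are shared with AC015712.2 on the other strand and AC015712.5, and without a stated strand setting reads there could not be assigned. AC015712.2 lay between 0.227 and 0.625 FPKM over the 9 libraries and AC015712.5 was listed at 0.

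DHRS3 (ENSG00000162496; chromosome 1, 12567910 to 12617731, minus strand), which works against ALDH1A3 by returning retinaldehyde to retinol, also rose in both exposed groups. It had 5.99, 5.45 and 5.64 FPKM in lactoferrin plus PM2.5, 3.93, 4.26 and 4.83 FPKM in PM2.5, and 3.64, 3.45 and 2.72 FPKM in control. The groups did not overlap, and lactoferrin plus PM2.5 was the highest. Against control, DHRS3 had a log2 fold change of 0.68 ± 0.10 with lactoferrin plus PM2.5 (adjusted p = 0.000794, limma) and 0.32 ± 0.10 with PM2.5 (adjusted p = 0.0348, limma). The call for PM2.5 against control was lost without any filter on low values (adjusted p = 0.0734) and without replicate 2 (0.0793) or 3 (0.128) of PM2.5, control replicate 2 (0.0767) or 3 (0.112), or replicate 2 of lactoferrin plus PM2.5 (0.0505). It was also lost without control replicate 3 and replicate 1 of lactoferrin plus PM2.5 together (0.0669), and its adjusted p over 20 alternatives lay between 0.00514 and 0.128 (limma). DHRS3 is itself a known target of retinoic acid.

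LRAT (ENSG00000121207; chromosome 4, 154626945 to 154753118, plus strand), the esterifying enzyme of vitamin A storage, was near 1 FPKM in every library and did not pass the test. It had 0.747, 0.727 and 0.852 FPKM in lactoferrin plus PM2.5, 0.741, 0.858 and 0.844 FPKM in PM2.5, and 0.927, 1.19 and 1.02 FPKM in control, from 94 to 150 reads per library. Both exposed groups lay below control without overlap. Against control, LRAT had a log2 fold change of -0.31 ± 0.11 with lactoferrin plus PM2.5 (adjusted p = 0.0564) and -0.27 ± 0.11 with PM2.5 (adjusted p = 0.0973, limma for both). In lactoferrin plus PM2.5 against control, LRAT was called lower with limma-voom on rebuilt reads (adjusted p = 0.0214) and with library weights (0.00497). The same held in PM2.5 against control (adjusted p = 0.0442 with limma-voom and 0.0213 with library weights). Without control replicate 1 it was called lower in lactoferrin plus PM2.5 against control (adjusted p = 0.0498, limma). Over 19 alternatives its adjusted p lay between 0.00497 and 0.182 for lactoferrin plus PM2.5 and between 0.0213 and 0.264 for PM2.5, each against control (limma).

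Of the retinoic acid receptors, RARG (ENSG00000172819; chromosome 12, 53210567 to 53232980, minus strand), a receptor abundant in epithelia, had the larger increase. It had 4.20, 4.58 and 4.54 FPKM in lactoferrin plus PM2.5, 3.76, 3.44 and 3.69 FPKM in PM2.5, and 2.47, 2.36 and 2.07 FPKM in control. The 3 groups did not overlap, in the order lactoferrin plus PM2.5, PM2.5, control. The log2 fold changes against control were 0.78 ± 0.08 with lactoferrin plus PM2.5 (adjusted p = 8.83e-05, limma) and 0.52 ± 0.08 with PM2.5 (adjusted p = 0.00109, limma).

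RARA (ENSG00000131759; chromosome 17, 40309192 to 40357643, plus strand), the most widely expressed of these receptors, rose by less. It had 4.71, 5.10 and 5.57 FPKM in lactoferrin plus PM2.5, 5.25, 5.29 and 4.97 FPKM in PM2.5, and 4.01, 4.07 and 3.80 FPKM in control. Every exposed library was above every control library, and the exposed groups overlapped each other. RARA had a log2 fold change of 0.29 ± 0.08 with lactoferrin plus PM2.5 (adjusted p = 0.0181, limma) and 0.30 ± 0.08 with PM2.5 (adjusted p = 0.016, limma), each against control. The call for lactoferrin plus PM2.5 was lost without replicate 2 (adjusted p = 0.0516) or 3 (0.0504) of lactoferrin plus PM2.5 or control replicate 2 (0.0523), with a range over 20 alternatives of 0.00239 to 0.0523 (limma). The call for PM2.5 against control was lost without PM2.5 replicate 1 (adjusted p = 0.054) or 2 (0.06), with a range of 0.00238 to 0.06 (limma). Of the exon bases of RARA, 17.9% are shared with RARA-AS1 and AC080112.3 on the other strand, which were below 1 FPKM in every library.

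RARB (ENSG00000077092; chromosome 3, 25174332 to 25597932, plus strand), the receptor gene whose promoter holds the repeat shown above, was hardly detected and did not pass the filter. It was listed at 0, 0 and 0.0516 FPKM in lactoferrin plus PM2.5, 0.0291, 0 and 0.0307 FPKM in PM2.5, and 0, 0.0327 and 0 FPKM in control, from 0 to 3 reads per library. A count of 0 allows up to 3 reads, which is 0.0431 to 0.053 FPKM in these libraries and covers counting error only. No difference was detectable at this depth.

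RXRA (ENSG00000186350; chromosome 9, 134317098 to 134440585, plus strand), the partner of all 3 retinoic acid receptors, did not differ beyond the spread of the libraries. It had 2.92, 4.01 and 3.67 FPKM in lactoferrin plus PM2.5, 3.87, 3.85 and 3.98 FPKM in PM2.5, and 3.94, 4.14 and 3.49 FPKM in control. The groups overlapped, and the lowest value was that of lactoferrin plus PM2.5 replicate 1, which stands apart from its group. Against control the log2 fold change was -0.16 (95% interval -0.39 to 0.07, adjusted p = 0.234, limma) with lactoferrin plus PM2.5 and -0.03 (-0.26 to 0.20, adjusted p = 0.849, limma) with PM2.5. The sign of the PM2.5 value turned to 0.02 without scaling between libraries. RXRB, the related receptor, was the more abundant in all 9 libraries, at 2.02 to 2.60 times the FPKM of RXRA in lactoferrin plus PM2.5, 2.39 to 2.42 times in PM2.5 and 2.30 to 3.11 times in control.

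Counted together, 4 of the 6 tested genes other than CRABP2 rose and 0 fell in each comparison with control: ALDH1A3, DHRS3, RARG and RARA (limma). LRAT was the 1 gene lower at an unadjusted p under 0.05, and limma-voom called it lower. In lactoferrin plus PM2.5 against control 38.2% of all 14454 tested genes were called, 19.6% higher and 18.5% lower. In PM2.5 against control 35.0% were called, 18.5% higher and 16.5% lower. The median log2 fold change of the 6 genes was 0.48 with lactoferrin plus PM2.5, beside -0.007 over all tested genes, and 0.31 with PM2.5, beside 0.0. Groups that did not overlap were found for 4 of the 6 genes in the higher direction and for 1, LRAT, in the lower direction. Over all tested genes this held for 47.6% in lactoferrin plus PM2.5 against control (24.1% higher, 23.4% lower) and for 53.7% in PM2.5 against control (27.9% higher, 25.9% lower). These 2 comparisons share the control libraries, and the genes were listed with results against control known, so nothing is read from the counts.

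**Figure D2:**
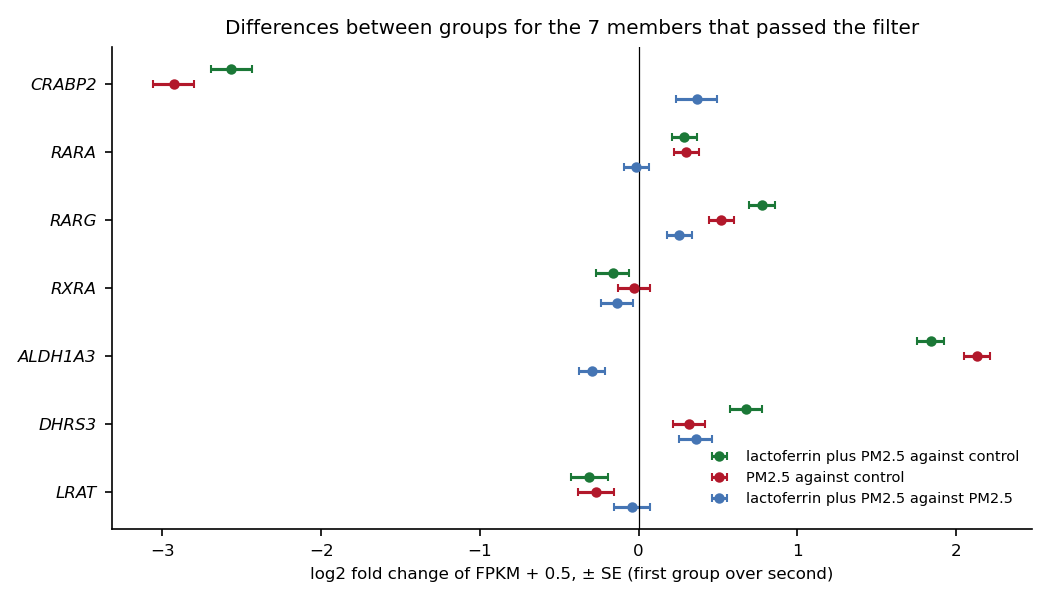
Log2 fold change of FPKM + 0.5 (horizontal axis, first-named group over the second, points with bars of ± SE) for the 7 genes that passed the filter, in lactoferrin plus PM2.5 against control, PM2.5 against control, and lactoferrin plus PM2.5 against PM2.5. CRABP2 lies at -2.57 and -2.93 and ALDH1A3 at 1.84 and 2.13 against control, while the values between the exposed groups lie from -0.29 to 0.37.

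The order of levels within a group, on the per-length FPKM scale, changed with exposure. In lactoferrin plus PM2.5 it ran ALDH1A3, CRABP2, DHRS3, RARA, RARG, RXRA, LRAT, RARB, and the ranges of the neighbours DHRS3 and RARA overlapped. In PM2.5 it ran ALDH1A3, CRABP2, RARA, DHRS3, RXRA, RARG, LRAT, RARB, and those of DHRS3 and RXRA overlapped. In control it ran CRABP2, RARA, RXRA, DHRS3, ALDH1A3, RARG, LRAT, RARB, and neighbours overlapped for RARA with RXRA, RXRA with DHRS3 and DHRS3 with ALDH1A3. The carrier thus ranked first in control and the retinoic acid producing enzyme ranked first in both exposed groups.

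Lactoferrin before PM2.5, set against PM2.5 alone, changed none of the 6 tested genes other than CRABP2 at an adjusted p under 0.05 (limma), beside 0.0484% of all tested genes (7 of 14454, 0.0208% higher and 0.0277% lower). An unadjusted p under 0.05 was reached by 3 of the 6 genes and by 1765 of all tested genes. Limma-voom on rebuilt reads called 0 of the 6 and 17 of all tested genes. The libraries of 3 of the 6 genes did not overlap between the groups: RARG and DHRS3 were higher and ALDH1A3 lower in every lactoferrin plus PM2.5 library. Over all tested genes, 20.7% did not overlap, 9.15% higher and 11.6% lower. DHRS3 had a log2 fold change of 0.36 ± 0.10 (adjusted p = 0.3), RARG 0.26 ± 0.08 (0.327) and ALDH1A3 -0.29 ± 0.08 (0.303, limma for all). CRABP2 was listed for its low values in the same PM2.5 libraries, so its difference here is also a description: it averaged 7.41 ± 1.19 FPKM with lactoferrin plus PM2.5 and 5.60 ± 0.386 FPKM with PM2.5 (SD, n = 3 each). The groups did not overlap, but only just: the lowest lactoferrin plus PM2.5 library had 6.05 FPKM and the highest PM2.5 library 6.04 FPKM. Its log2 fold change was 0.37 ± 0.13.

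With library weights, which counted replicate 1 of lactoferrin plus PM2.5 and control replicate 3 least, 3 of the 6 were called: RARG (adjusted p = 0.013), ALDH1A3 (0.0124) and DHRS3 (0.0304, limma). Under that setting 2034 of all tested genes were called as well. The weights were 0.247, 3.697 and 0.564 for replicates 1, 2 and 3 of lactoferrin plus PM2.5, so these calls rest largely on replicate 2 of that group. The adjusted p over 20 alternatives ranged from 0.013 to 0.725 for RARG, from 0.0124 to 0.725 for ALDH1A3 and from 0.0304 to 0.679 for DHRS3 (limma). The remaining genes overlapped between the groups, with log2 fold changes of -0.14 for RXRA (95% interval -0.36 to 0.09), -0.04 for LRAT (-0.30 to 0.21) and -0.01 for RARA (-0.19 to 0.16).

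Ratios within a library compare genes without the scaling between libraries. ALDH1A3 over DHRS3, the enzyme that makes retinoic acid over the one that withdraws its precursor, was 1.88, 2.05 and 1.95 in lactoferrin plus PM2.5, 3.46, 3.28 and 2.82 in PM2.5, and 0.692, 0.747 and 1.05 in control. The groups did not overlap, and lactoferrin plus PM2.5 lay between the other groups. RARG over RARA was 0.892, 0.898 and 0.814 in lactoferrin plus PM2.5, 0.716, 0.652 and 0.742 in PM2.5, and 0.617, 0.578 and 0.545 in control, again without overlap. For both ratios each of the 3 comparisons gave p = 0.1 in a two-sided exact permutation test, the smallest that 20 splits of 3 against 3 allow, and 0.156 after Benjamini-Hochberg adjustment over 14 ratio tests. RDH10 over DHRS3, the oxidising against the reducing step between retinol and retinaldehyde, was 3.80 to 5.99 in lactoferrin plus PM2.5, 5.96 to 7.15 in PM2.5 and 3.04 to 3.79 in control. The exposed groups overlapped each other in that ratio (exact permutation p = 0.2, adjusted 0.255).

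**Figure D3:**
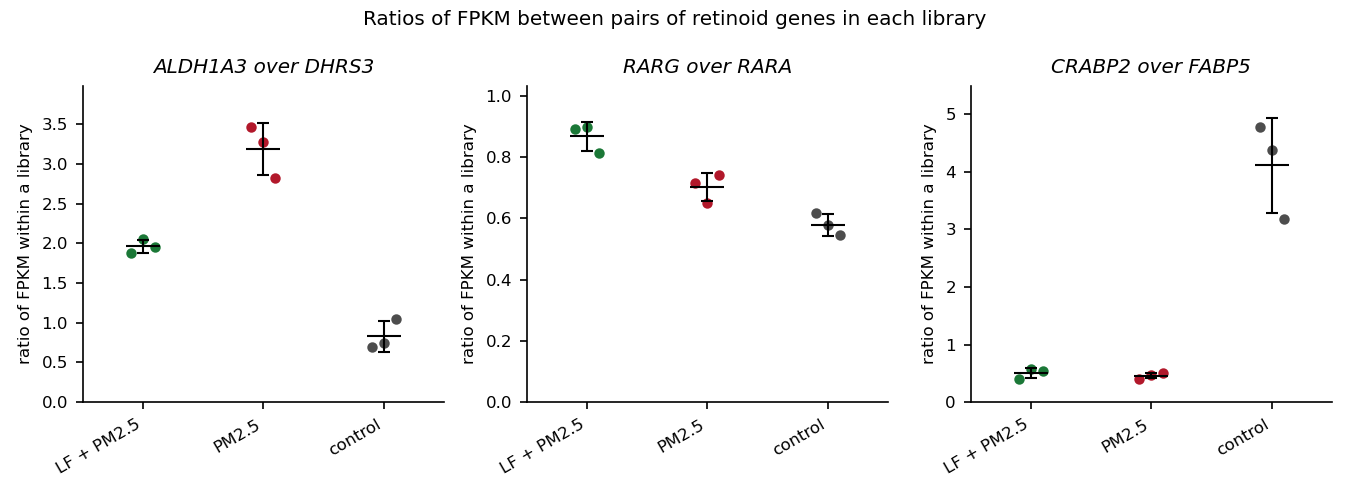
Ratio of FPKM within each library (vertical axes from 0) for ALDH1A3 over DHRS3, RARG over RARA and CRABP2 over FABP5, with points for libraries and bars for the mean ± SD of lactoferrin plus PM2.5 (LF + PM2.5), PM2.5 and control. ALDH1A3 over DHRS3 lies at 1.88 to 2.05, 2.82 to 3.46 and 0.692 to 1.05 in these groups, and CRABP2 over FABP5 is below 1 in every exposed library.

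Beyond the 8 genes, 82 other genes of the pathway fell into 8 lists. Of these, 53 passed the filter and 31 stayed below 1 FPKM in every library. Of the 53, 2 reached the filter level in exposed libraries only and 1 in control libraries only. The filter admitted them through the group where they were high, so their calls against control are a description. The same holds for STRA6, which reached that level in every control library and at most 0.506 FPKM in an exposed one. In lactoferrin plus PM2.5 against control 15 rose and 14 fell, with a median log2 fold change of 0.09 over the 53. In PM2.5 against control 14 rose and 11 fell, with a median of 0.005. Between lactoferrin plus PM2.5 and PM2.5 limma and limma-voom called 0 of the 53, and 7 had an unadjusted p under 0.05. The shares called over all tested genes are those given above for each comparison, and they were not tested against the lists. The lists were chosen with earlier results known, so nothing is read from their counts.

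The genes that supply or withdraw retinaldehyde moved in different directions. RDH10, the main retinol dehydrogenase of retinoic acid synthesis in the mouse embryo, had 22.8, 32.4 and 33.8 FPKM in lactoferrin plus PM2.5, 28.1, 28.0 and 28.8 FPKM in PM2.5, and 11.1, 11.5 and 10.3 FPKM in control. All exposed libraries were above control, and RDH10 rose by a log2 fold change of 1.32 ± 0.12 with lactoferrin plus PM2.5 (adjusted p = 5.54e-05) and 1.28 ± 0.12 with PM2.5 (adjusted p = 8.45e-05, limma for both). DHRS9, another dehydrogenase that acts on retinol, fell to 0.69 ± 0.207 FPKM in lactoferrin plus PM2.5 and 0.593 ± 0.127 FPKM in PM2.5, against 2.81 ± 0.348 FPKM in control (SD, n = 3 each). Its adjusted p was 6.1e-05 with lactoferrin plus PM2.5 and 4.97e-05 with PM2.5 (limma). AKR1B10, which reduces retinaldehyde, rose to 1.26 ± 0.475 FPKM in lactoferrin plus PM2.5 and 0.855 ± 0.155 FPKM in PM2.5. In control it averaged 0.139 ± 0.0437 FPKM, from 3 to 5 reads per library. AKR1B10 has close paralogs that could share its reads, and its log2 fold change in PM2.5 against control ranged from 0.69 to 2.45 with the pseudocount and the other settings. Of the 9 tested genes of this step, 3 rose (RDH10, RDH11, AKR1B10) and 1 fell in lactoferrin plus PM2.5 against control, and RDH13 also rose in PM2.5 against control. AKR1B10 reached the filter level in exposed libraries only, so its rise and its place in these counts are a description.

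Of 7 tested genes of retinol uptake, storage and carriers, STRA6 and BCO1 fell. STRA6, a membrane receptor that imports retinol from its plasma carrier, averaged 0.417 ± 0.0937 FPKM in lactoferrin plus PM2.5, 0.394 ± 0.0534 FPKM in PM2.5 and 1.08 ± 0.226 FPKM in control. BCO1, which cleaves beta-carotene into retinaldehyde, averaged 0.967 ± 0.189 FPKM in lactoferrin plus PM2.5, 0.907 ± 0.0797 FPKM in PM2.5 and 2.49 ± 0.417 FPKM in control (SD, n = 3 each). Both passed the test in each comparison with control (adjusted p between 0.00045 and 0.0028, limma). The log2 fold change of STRA6 in PM2.5 against control, -0.84, lay between -1.48 and -0.59 over the other settings.

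Of the enzymes that clear retinoic acid, CYP26A1, CYP26B1 and CYP26C1 were below the filter, at means of at most 0.162, 0.0814 and 0.263 FPKM in a group. CYP2S1, a hydroxylase that also acts on retinoic acid, averaged 3.39 FPKM in lactoferrin plus PM2.5, 3.51 FPKM in PM2.5 and 2.96 FPKM in control and was not called. ALDH8A1, a relative that can oxidise retinaldehyde, was below the filter with 1 to 7 reads in lactoferrin plus PM2.5, 3 to 5 reads in PM2.5 and 17 to 24 reads in control.

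Among 11 tested nuclear receptors that share RXR as a partner, 8 rose and 1 fell in each comparison with control. PPARD, PPARG, NR1H2, NR1H3, VDR, NR1I3 and NR4A1 rose in both, THRA was called higher in lactoferrin plus PM2.5 against control and PPARA in PM2.5 against control. NR1I3 reached the filter level in exposed libraries only, so its rise is a description. Over all tested genes 19.6% were called higher and 18.5% lower in lactoferrin plus PM2.5 against control. In PM2.5 against control 18.5% were called higher and 16.5% lower. The list was chosen with earlier results known, so nothing is read from the count. VDR, the vitamin D receptor, averaged 5.53 ± 0.409 FPKM in lactoferrin plus PM2.5, 4.55 ± 0.291 FPKM in PM2.5 and 1.02 ± 0.22 FPKM in control, with log2 fold changes against control of 1.95 ± 0.11 with lactoferrin plus PM2.5 (adjusted p = 3.54e-06) and 1.70 ± 0.11 with PM2.5 (adjusted p = 9.21e-06, limma for both). PPARG, a regulator of lipid storage, averaged 10.9 ± 0.809 FPKM in lactoferrin plus PM2.5, 9.14 ± 0.0429 FPKM in PM2.5 and 4.91 ± 0.694 FPKM in control, and rose in both. THRB, a thyroid hormone receptor, was the gene that fell, to 2.81 ± 0.654 FPKM in lactoferrin plus PM2.5 and 3.78 ± 0.427 FPKM in PM2.5, against 7.65 ± 0.187 FPKM in control (SD, n = 3 each). Of 11 tested coregulators and other RXR genes, 1 rose in each comparison (NCOA3, a coactivator), 4 fell in lactoferrin plus PM2.5 against control (among them RXRB, NCOR1 and NCOA2) and 1 fell in PM2.5 against control (NCOR1, a corepressor).

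Of 15 tested genes known to respond to retinoic acid in other cells, 3 rose and 7 fell in lactoferrin plus PM2.5 against control, and 1 rose and 7 fell in PM2.5 against control. Among those that fell, 1 reached the filter level in control libraries only, so its fall is a description, as is that of STRA6. Over all tested genes 19.6% were called higher and 18.5% lower in lactoferrin plus PM2.5 against control. In PM2.5 against control these shares were 18.5% and 16.5%. Over the 15 genes the median log2 fold change was -0.69 with lactoferrin plus PM2.5 and -0.43 with PM2.5, each against control. TGM2, a transglutaminase, rose to 118 ± 6.61 FPKM in lactoferrin plus PM2.5 and 127 ± 1.74 FPKM in PM2.5, against 60.9 ± 2.81 FPKM in control. HOXA5, a homeobox gene, fell to 13.6 ± 0.38 FPKM in lactoferrin plus PM2.5 and 12.2 ± 0.204 FPKM in PM2.5, against 29.6 ± 2.13 FPKM in control. HOXA3 fell to 5.89 ± 0.592 FPKM in lactoferrin plus PM2.5 and 6.62 ± 0.603 FPKM in PM2.5, against 12.5 ± 1.24 FPKM in control (SD, n = 3 each). STRA6, RARRES2, GPRC5A and RAI14 were among the others that fell in both comparisons, while HOXB2 and PLAAT4 rose in lactoferrin plus PM2.5 against control and were not called in PM2.5 against control or between the exposed groups. RARB, a response gene as well as a receptor, was listed at or near 0 as described, and other genes of the list are controlled by many factors besides retinoic acid.

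**Figure D4:**
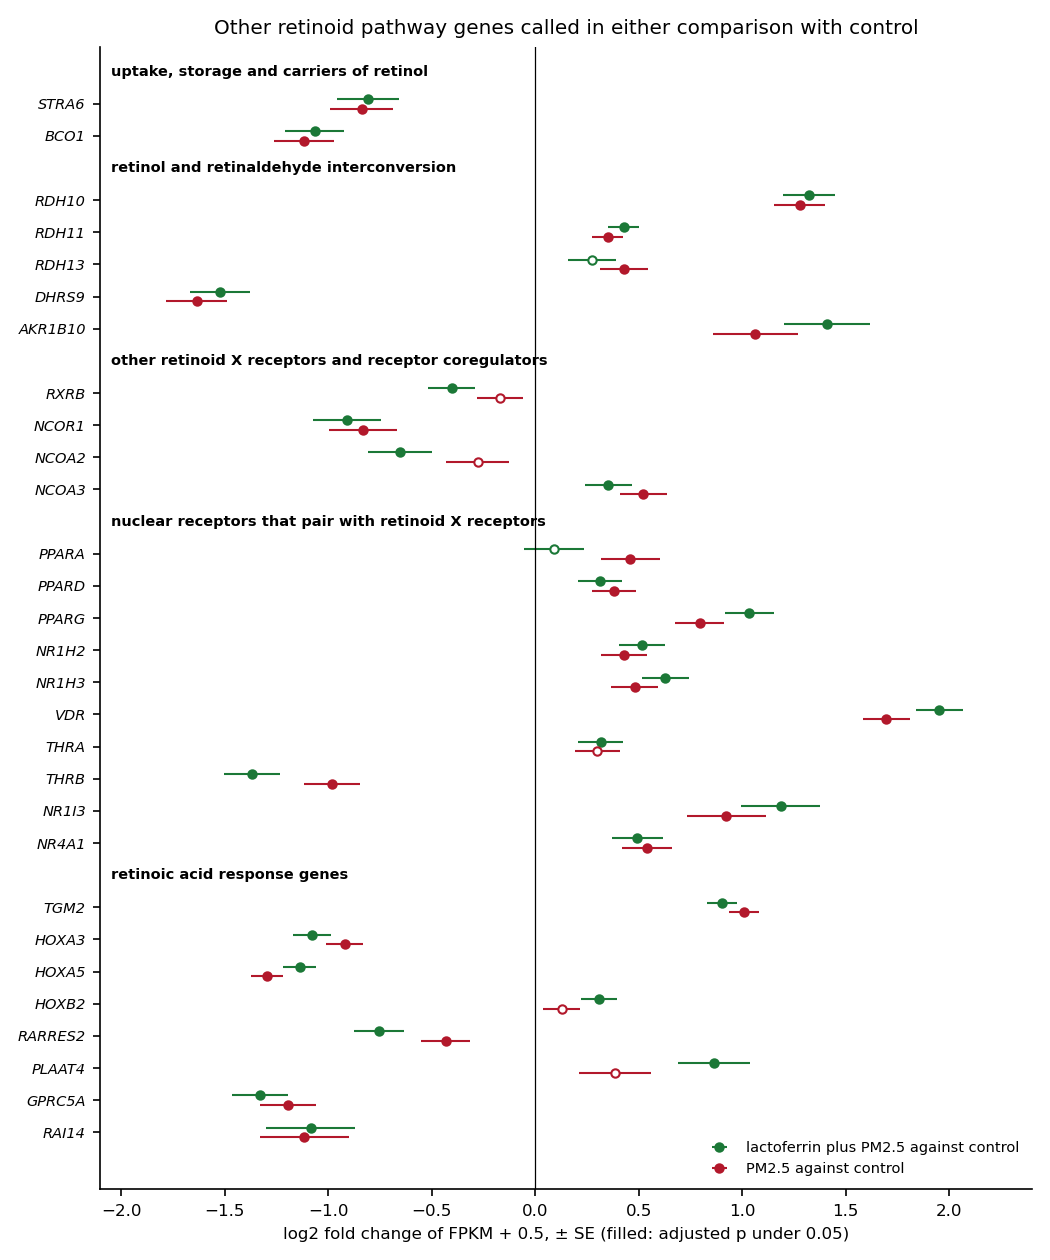
Log2 fold change of FPKM + 0.5 (horizontal axis, bars ± SE) for pathway genes called in lactoferrin plus PM2.5 against control or in PM2.5 against control and reported here, grouped by list, with filled points for an adjusted p under 0.05. VDR (1.95 and 1.70) and DHRS9 (-1.52 and -1.64) lie at the ends, and most RXR partners lie to the right of 0. AKR1B10, NR1I3 and STRA6 passed the filter through the group where they were high and are shown as a description.

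Between the exposed groups, where no list gene was called, the genes with the highest mean level of each list were named, and some of them follow. AKR1B1, an aldose reductase that can act on retinaldehyde, averaged 1030 FPKM in lactoferrin plus PM2.5 and 932 FPKM in PM2.5 (adjusted p = 0.661, limma). ADH5, an alcohol dehydrogenase, averaged 68.3 FPKM in lactoferrin plus PM2.5 and 58.1 FPKM in PM2.5 (adjusted p = 0.423, limma). TGM2 averaged 118 FPKM in lactoferrin plus PM2.5 and 127 FPKM in PM2.5 (adjusted p = 0.521, limma). RAI14 averaged 30.4 FPKM in lactoferrin plus PM2.5 and 30.3 FPKM in PM2.5 (adjusted p = 0.957, limma). In deposited FPKM these exposed groups overlapped for AKR1B1, RAI14 and TGM2 (TGM2 at 113 to 126 FPKM in lactoferrin plus PM2.5 and 125 to 129 FPKM in PM2.5). ADH5 did not overlap, at 61.0 to 77.7 FPKM in lactoferrin plus PM2.5 and 57.1 to 59.1 FPKM in PM2.5. After scaling between libraries this turned round: ADH5 overlapped, and TGM2 was lower in every lactoferrin plus PM2.5 library than in every PM2.5 library. FABP5 averaged 15.0 FPKM in lactoferrin plus PM2.5 and 12.2 FPKM in PM2.5 (adjusted p = 0.587, limma).

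The genes whose profile over the 9 libraries was most like that of CRABP2, by the root mean square difference of log2(FPKM + 0.5) after centring, were ID3 (0.25), PDZK1 (0.26), CTHRC1 (0.35), CD24 (0.36) and MAP7D3 (0.38), out of 6553 genes with a mean of at least 5 FPKM. ID3, an inhibitor of helix-loop-helix transcription factors, averaged 14.1 FPKM in lactoferrin plus PM2.5, 11.2 FPKM in PM2.5 and 110 FPKM in control. PDZK1, a scaffold of brush border transporters, averaged 5.84 FPKM in lactoferrin plus PM2.5, 5.22 FPKM in PM2.5 and 29.2 FPKM in control. CTHRC1, a secreted matrix protein, averaged 2.44 FPKM in lactoferrin plus PM2.5, 2.60 FPKM in PM2.5 and 12.8 FPKM in control. CD24, a surface glycoprotein, averaged 85.4 FPKM in lactoferrin plus PM2.5, 89.0 FPKM in PM2.5 and 396 FPKM in control. MAP7D3, a microtubule-associated protein, averaged 9.25 FPKM in lactoferrin plus PM2.5, 7.22 FPKM in PM2.5 and 40.5 FPKM in control. All 5 were lower in both exposed groups than in control, and they were picked for that profile, so this is a description.

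**Figure D5:**
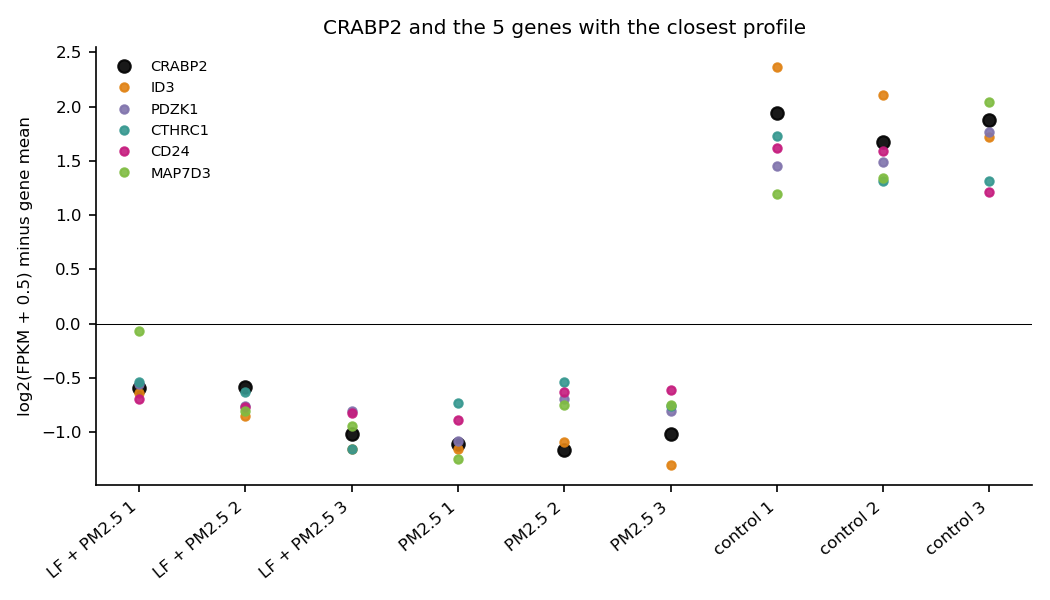
Log2(FPKM + 0.5) minus the mean of each gene (vertical axis) in each of the 9 libraries (horizontal axis; LF, lactoferrin) for CRABP2 and the 5 genes with the most similar profile. Every gene lies above its mean in the 3 control libraries and below it in the 6 exposed libraries.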

How the data were processed

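RNA from 9 HK-2 libraries was analysed, grouped by the sample labels. The deposited values were FPKM per Ensembl gene, made by the authors. Per the submitters' processing notes, which give no order or settings, the genome was GRCh38 and the tools were HISAT2 2.1.0, featureCounts 1.6.0, Trimmomatic 0.38, DESeq2 1.22.1, MultiQC, FastQC and CASAVA. Strandedness, annotation release and the counting of reads as opposed to fragments are not given in the sources. With GENCODE v29 exon lengths (58611 identifiers), 85.94% to 87.23% of low values (at most 200 reads) were whole reads within 0.05, which gave the depths. Symbols were found for 41967 identifiers.

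FPKM were divided by trimmed mean of M values factors (0.93 to 1.03). Counts and shares of genes whose groups did not overlap used these scaled values. Log2(FPKM + 0.5) was fitted over all 9 libraries in limma 3.58.1 (R 4.3.3), with Benjamini-Hochberg adjustment over 14454 genes at 0.5 FPKM or more in at least 3 libraries, and a call at an adjusted p under 0.05. A fold change on this scale understates that of low genes. The analysis was tested on simulated data. Members and lists were chosen with earlier results of these data known. Named were the 8 members, up to 3 called genes per list and comparison with the smallest adjusted p (otherwise the 2 highest by mean FPKM), the 5 closest profiles, and FABP5, CRABP1, RXRB, CYP26A1 and CYP26B1. Other called list genes are named only to complete a count. Some genes that this rule selects are counted but not reported here. Alternatives changed the scaling, pseudocount, filter, model, weights and libraries. Figures used matplotlib 3.10.9 in Python 3.11.15.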

Additional observations from a re-analysis of the deposited data

How the results depend on the processing

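Of the alternatives run, 1094 results kept their direction and their side of the threshold or stayed within 1.5 times the count given. Of the others, 15 counts moved further, 5 fold changes changed sign, 9 gained a call and 12 lost one. The log2 fold changes of CRABP2, ALDH1A3 and RARG against control kept their direction in all alternatives, and ALDH1A3 and RARG also kept their call. Leaving out single libraries, the number of genes other than CRABP2 called in PM2.5 against control ranged from 2 (without PM2.5 replicate 2) to 4, in lactoferrin plus PM2.5 against control from 3 to 5 and between the exposed groups it was 0. Over all tested genes, leaving out single libraries gave 3706 to 5859 calls in PM2.5 against control, 4166 to 5405 in lactoferrin plus PM2.5 against control and 0 to 10 between the exposed groups (0 without replicate 2 of lactoferrin plus PM2.5 or PM2.5 replicate 1 or 2, 3 without PM2.5 replicate 3, 4 without control replicate 1 or 2). Pathway list genes called ranged from 23 to 30 in lactoferrin plus PM2.5 against control and from 20 to 28 in PM2.5 against control. With library weights 7732 genes were called in PM2.5 against control, and between the exposed groups 2034 genes, 10 pathway list genes and 4 of the 7 tested retinoic acid handling genes were called. CRABP2 is among these 4 and was listed for its low values in the same PM2.5 libraries, so its call is no support, and 3 are left without it. The count of 7 genes between the exposed groups was 17 with limma-voom on rebuilt reads, 4 with only the 6 libraries compared and 11 without control replicate 3 and replicate 1 of lactoferrin plus PM2.5 together. Values near 0 changed sign: RXRA in PM2.5 against control was 0.016 without scaling, and RARA between the exposed groups, at -0.01, was 0.021 with upper-quartile factors, 0.027 without replicate 1 of lactoferrin plus PM2.5, 0.013 without PM2.5 replicate 1 and 0.031 without that library of lactoferrin plus PM2.5 and control replicate 3. Leaving out single libraries, RARA between the exposed groups ranged from -0.06 to 0.027. The cause of these shifts was not tested.

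Samples with the same replicate number shared only that number by their labels. The correlations of their deviations from the group means lay between -0.068 and 0.179. A library correlated best with its own number in 12 of 18 cases, a hint from the data and not the design. Each case had 3 libraries to match, and the 18 cases reuse the same 9 libraries, so they are not independent and the count was not tested. With a replicate block the calls between the exposed groups were 13, and the counts for the retinoic acid handling genes were 4 in each comparison with control and 0 between the exposed groups. RARB was too shallow for any of these comparisons, and LRAT is not tested where 1 FPKM is required.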
